A study of Macaca mulatta with 9 samples.

Results

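The 10 genes described here mark the cells that line blood vessels or are read in the microvessels of grafts rejected by antibody: PECAM1, CDH5, CDH13, KDR, TEK, ROBO4, SOX7, PALMD, PLA1A and ERG. They were chosen by name, and all 10 were found, 1 probe each, among the 767 probes of the table. The samples were kidney xenografts from genetically modified donor pigs, taken as formalin-fixed, paraffin-embedded biopsies, with the organism labelled Macaca mulatta, the rhesus macaque. The assay was the nCounter Human Organ Transplant Panel, which tallies molecules caught by a probe without amplification. Of 3 groups with 3 libraries each, 1 came from donors labelled 1KO.1TG (1KO.1TG early R, called early R below) and 2 from donors labelled 3KO.7TG (3KO.7TG early bx, or early bx below, with 3KO.7TG late R, or late R below). The labels spell out neither R nor bx, name none of the knocked-out or added genes, give no day, and call every sample male. Whether the samples within a group are from different animals is not stated, and p-values therefore reflect only the scatter among these samples, part of which may be technical.

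The endothelium is the first donor tissue that a recipient's blood meets, and antibodies that bind it drive antibody-mediated rejection. Its identity is held by transcription factors of the ETS and SOX families, its growth and quiescence are set by the receptors for vascular endothelial growth factor and the angiopoietins, and its barrier rests on junction proteins such as the cadherins. Several of these transcripts, and a few others seen in inflamed microvessels, are used in human kidney biopsies to score antibody-mediated rejection.

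The probes were designed against human transcripts. Their affinity for pig and macaque RNA was not known here, and each value is read as a probe's signal, whichever species' vessels it came from. In a biopsy, fewer endothelial cells and less RNA per cell cannot be told apart. No sequence of the probes or genes was used here.

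Total counts ranged from 657340 to 1620151 in 8 libraries and were 21725 in early R replicate 3, the low-yield library of the text that follows. The panel carries 4 viral probes, which gave 1 to 17 counts in any library and serve here as a guide to background. In the low-yield library 79.5% of the panel did not exceed 17 counts, against 15.0% to 24.0% in the other 8. All 10 endothelial genes lay at 4 to 14 counts in it, 9 of them at or below its highest viral probe of 13, so the comparisons are also given without that library. UMOD, the uromodulin of the thick ascending limb, gave 452 to 31665 counts over the 9 libraries, so kidney RNA was read in all of them; NPHS1, the nephrin of podocytes, gave 4 to 28.

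The 10 probes differed in how far they rose above background. Leaving the low-yield library aside, PECAM1, CDH13, TEK, SOX7 and ERG exceeded 17 counts in all 8, PLA1A in 7 and KDR in 6. CDH5, ROBO4 and PALMD did so in 2 of 8. Fold changes are therefore given for the first 7 genes, and the other 3 are described by their counts. Together the 10 genes took 0.112% to 0.210% of all counts in the 8 libraries.

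**Figure D1:**
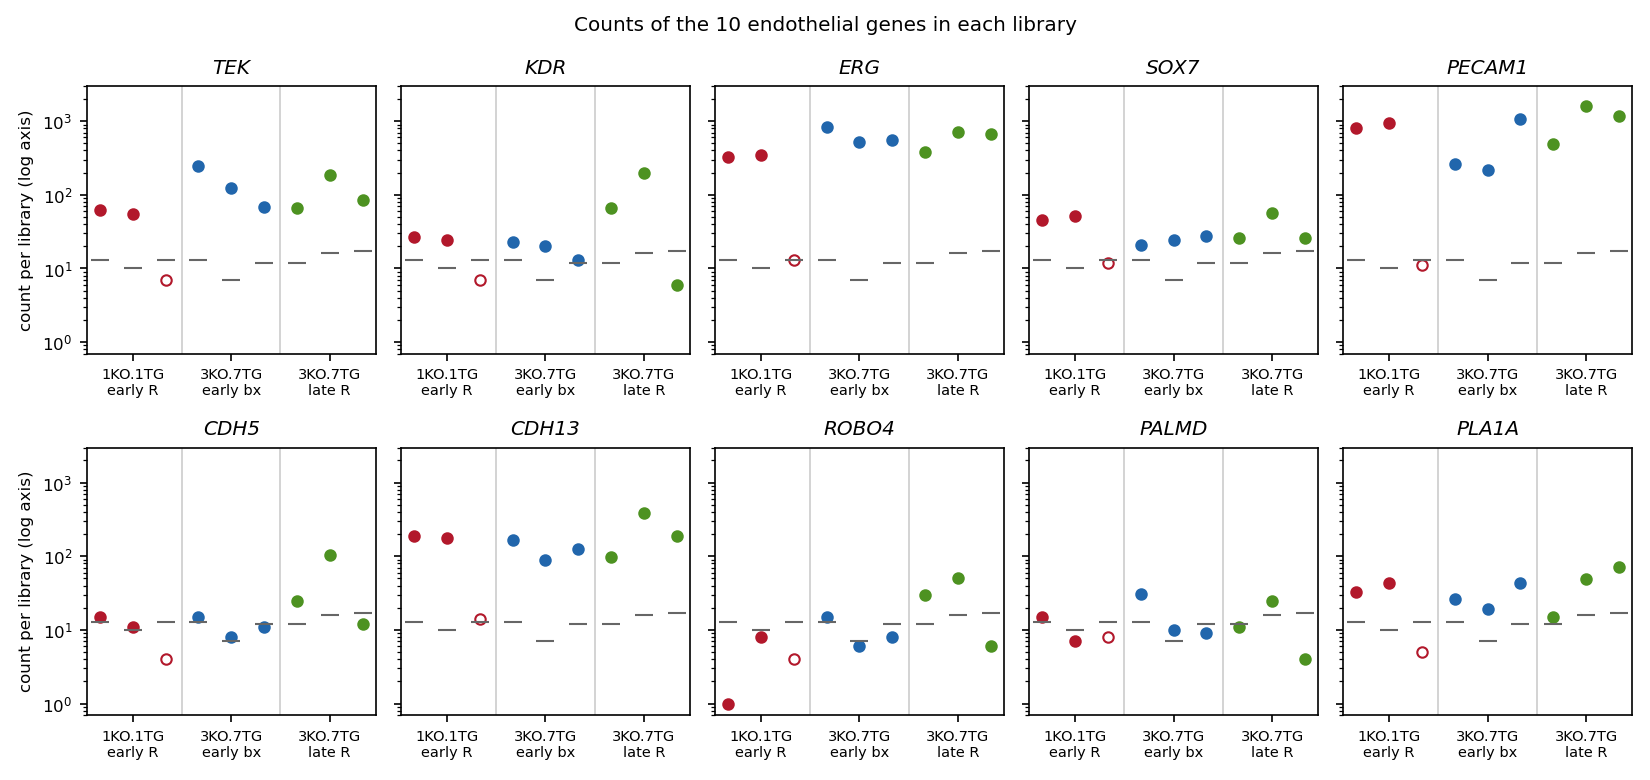
Count of each of the 10 endothelial genes (log axis) in each of the 9 libraries, replicates 1 to 3 from left to right within a group; open circles are the low-yield library and grey dashes the highest of the 4 viral probes in that library. PECAM1, ERG, CDH13 and TEK stand clear of the viral probes in the other 8 libraries, while CDH5, ROBO4 and PALMD exceed 17 counts in 2 of 8.

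ERG, an ETS factor that maintains endothelial identity, had the smallest p-value of the 10 between the early groups. It gave 327, 342 and 13 counts in early R, 827, 517 and 556 in early bx, and 386, 721 and 679 in late R. On the CPM scale, counts per 1000000 of effective library size (the total count times a trimmed-mean scaling factor), these were 314, 305 and 221, then 1213, 858 and 495, then 545, 476 and 516. Every library of early R lay below every library of the other groups, and the late R libraries lay close together. On the log2 CPM scale the means were 8.13 ± 0.25 (SD, n = 3), 9.65 ± 0.65 and 9.0 ± 0.10. The lowest CPM came from the low-yield library, where 13 counts equalled its highest viral probe.

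TEK, the angiopoietin receptor Tie2, ran with ERG. It gave 62, 55 and 7 counts in early R, 243, 125 and 69 in early bx, and 66, 184 and 84 in late R. On the CPM scale replicates 1 and 2 of early bx stood at 356 and 207, above every other library, whose values ran from 49.0 to 121. Replicate 3 of the same group, at 61.4, lay among the other groups. Over the 8 libraries the Pearson correlation of TEK with ERG in log2 CPM was 0.92, the highest of the 45 pairs among the 10 genes. These correlations share libraries and scaling and are given as a description.

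PECAM1, the CD31 junction protein, is carried by endothelium and also by platelets and many leucocytes. It gave 805, 932 and 11 counts in early R, 265, 216 and 1066 in early bx, and 495, 1623 and 1178 in late R. Replicates 1 and 2 of early bx, the libraries highest in TEK and ERG, were the lowest of the 8 in PECAM1, at 389 and 358 CPM against 699 to 1071 in the other 6. PECAM1 correlated negatively with TEK and ERG (Pearson r = −0.80 and −0.77, 8 libraries).

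The balance between PECAM1 and ERG within a library needs no scaling between libraries. The PECAM1 count was 0.320 and 0.418 times the ERG count in replicates 1 and 2 of early bx and 1.92 times in replicate 3. It was 2.46 and 2.73 times the ERG count in replicates 1 and 2 of early R, and 1.28, 2.25 and 1.73 times in late R. Replicates 1 and 2 of early bx thus lay below the other 6 libraries, and replicate 3 lay among those. This ratio was chosen after its values were seen, and it shows unequal levels of the 2 probes, not which of them moved.

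KDR, the main signalling receptor for vascular endothelial growth factor, gave 27, 24 and 7 counts in early R, 23, 20 and 13 in early bx, and 66, 195 and 6 in late R. The late R group therefore held both the highest and the lowest libraries. Replicate 2 had 128.7 CPM and replicate 3 had 4.56, a 28.2-fold range. The exact Poisson 95% intervals of these counts, 168.6 to 224.4 and 2.20 to 13.1, did not overlap; they cover counting error only.

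CDH5, the VE-cadherin of endothelial junctions, followed KDR (r = 0.90, the second highest of the 45 pairs). It gave 25, 103 and 12 counts in late R, against 8 to 15 in the 5 libraries of the early groups other than the low-yield one, with 4 in that. ROBO4, an endothelial receptor that steadies the vessel barrier, gave 30, 51 and 6 counts in late R and 1 to 15 elsewhere. For all 3 genes replicates 1 and 2 of late R were the highest of the 9 libraries by count. Replicate 3 of that group was below its highest viral probe of 17 for each of them, in a library of 1599943 counts. In the other 6 of the 8 libraries CDH5 and ROBO4 gave at most 15 counts, within the range of the viral probes.

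**Figure D2:**
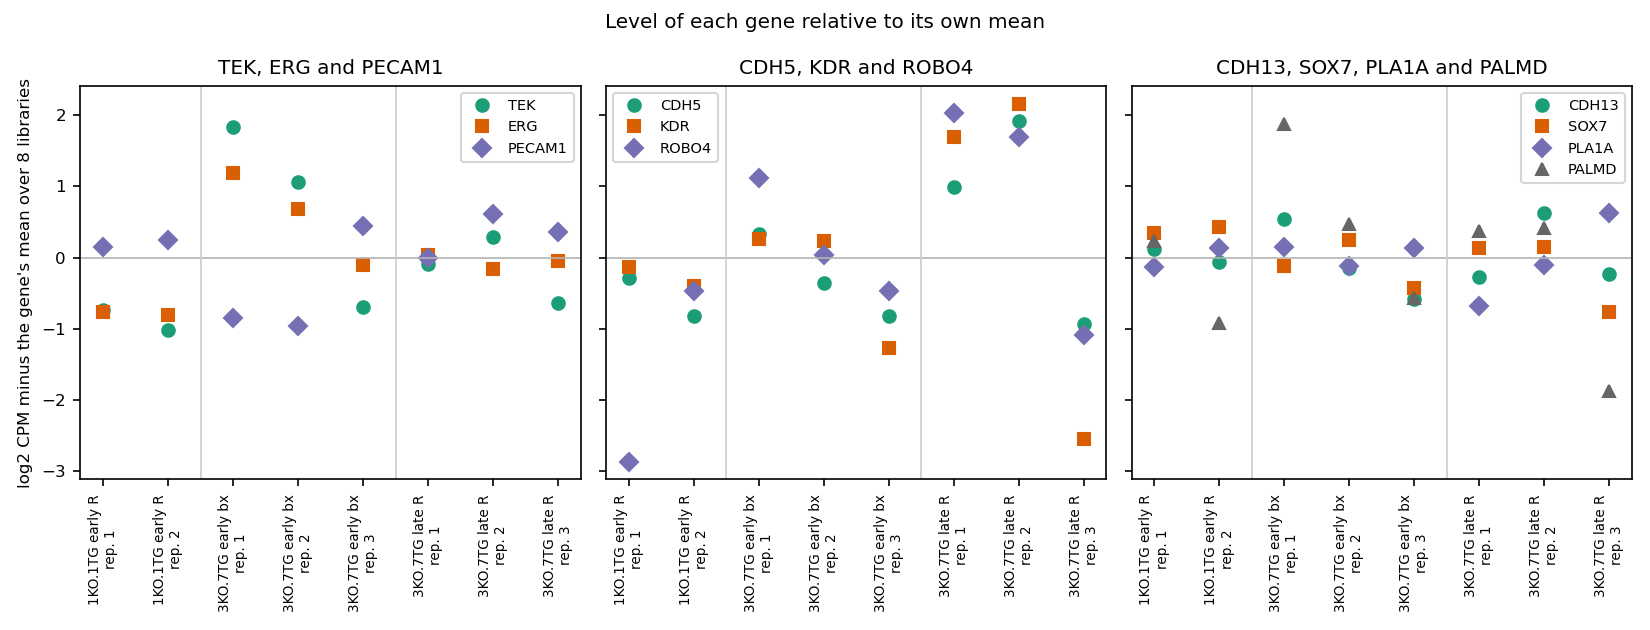
Level of each gene (log2 CPM minus its own mean over the 8 libraries without the low-yield one), 1 point per library. TEK and ERG are highest and PECAM1 lowest in replicates 1 and 2 of early bx; CDH5, KDR and ROBO4 are highest in replicates 1 and 2 of late R; CDH13, SOX7 and PLA1A vary least, and the deep points of ROBO4 and PALMD are counts of 1 and 4.

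The remaining 4 genes were CDH13, SOX7, PLA1A and PALMD. Over the 8 libraries CDH13 was nearest to CDH5 (r = 0.64) and farthest from PECAM1 (−0.16). SOX7 was nearest to KDR (0.65) and farthest from PLA1A (−0.63). PLA1A had no near member (at most 0.15, with PECAM1) and ran most against KDR (−0.82). CDH13, the T-cadherin that is anchored to the membrane by lipid and has no cytoplasmic tail, gave 189, 178 and 14 counts in early R, 165, 90 and 125 in early bx, and 97, 388 and 187 in late R. SOX7, a SOX factor of endothelial and vessel-forming cells, gave 45, 51 and 12 counts, then 21, 24 and 28, then 26, 57 and 26. PLA1A, a phospholipase that acts on phosphatidylserine and is raised in antibody-mediated rejection of human kidneys, gave 33, 43 and 5 counts, then 26, 19 and 43, then 15, 49 and 71. These 3 genes varied least among the 10, with 2.30-fold, 2.30-fold and 2.55-fold ranges of CPM over the 8 libraries. PALMD, the paralemmin relative palmdelphin, gave 4 to 31 counts over all libraries, with the highest in replicate 1 of early bx and the lowest in replicate 3 of late R. As far as such low counts show, it ran with TEK, KDR, ERG, CDH13 and CDH5 over the 8 libraries (r = 0.81, 0.67, 0.61, 0.61 and 0.57). With ROBO4 and SOX7 its r was 0.45 and 0.43, and with PECAM1 and PLA1A −0.63 and −0.51.

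The 10 genes thus did not vary as 1 block. Of the 45 pairs 30 had a positive r over the 8 libraries, with a median of 0.24 and a range from −0.82 (KDR and PLA1A) to 0.92. PLA1A and PECAM1 were each nearest to the other, at r = 0.15, and both correlated negatively with the mean of the other 9 genes (−0.60 and −0.43). CDH5 had the highest such value (0.83), followed by KDR (0.77) and PALMD (0.72).

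Of 619 other probes with a mean of at least 20 counts over the 8 libraries, those most like the mean of the 10 genes were ADAMTS1, CH25H, ADGRL4, CAV1, GNG11, BMPER, COL13A1 and IFITM2, with r from 0.97 to 0.79. ADGRL4 is an adhesion receptor of endothelium, CAV1 encodes caveolin-1, the coat protein of caveolae, and ADAMTS1 is a secreted metalloprotease. Least like it were TNFRSF18, TIGIT, ICOSLG and CD274, with r of −0.95, −0.94, −0.89 and −0.88; the first 2 are receptors of T cells and natural killer cells, and the others are ligands on antigen-presenting cells. Several of these probes gave under 20 counts in some libraries, ADAMTS1 8 to 71 and TNFRSF18 7 to 44. The mean was unweighted, so the genes that varied most could set it. These were ROBO4, KDR, PALMD and CDH5 (SD of log2 CPM 1.61, 1.51, 1.12 and 1.01), all but KDR near background in most libraries.

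The first comparison set the 2 donor lines side by side in samples labelled early (early R against early bx); R against bx cannot be told apart from donor line in it. None of the 10 genes passed an adjusted p of 0.05 in limma over all 767 probes, of which 0.391% were called; 2 of the 10, ERG and TEK, had an unadjusted p under 0.05, as did 13.2% of all probes. ERG came nearest. It stood at a log2 fold change of −1.47 ± 0.46 (SE, limma adjusted p = 0.230, rank 26 of 767), and −1.31 ± 0.42 without the low-yield library (limma adjusted p = 0.146). With 1 quality weight per library added to the fit, ERG passed, at −1.50 and a limma adjusted p of 0.0251. In that setting 33 of the 767 probes were called, against 3 in the main fit. It was the 1 setting of the 18 tried in which any of the 10 genes passed. TEK stood at −1.50 ± 0.66 (limma adjusted p = 0.350); with the low-yield library left out it was at −1.49 ± 0.71 and its groups no longer overlapped. Without early bx replicate 1, its highest library, TEK stood at −0.80.

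SOX7 was the other gene whose groups did not overlap, at 0.71 ± 0.60 (limma adjusted p = 0.714); leaving out the low-yield library, whose 12 counts were below its highest viral probe, it was at 0.57 ± 0.49. Non-overlap was seen for 2 of the 10 genes, against 13.8% of all probes. Without the low-yield library it was 3 of 10, against 33.6% of all probes, of which 1.83% were called. PECAM1 had a log2 fold change of 0.24 ± 0.59, and 0.71 ± 0.48 without the low-yield library. CDH13, KDR and PLA1A stood at 0.15 ± 0.46, 0.35 ± 1.31 and 0.06 ± 0.58. The median of the 10 genes was 0.11 with 6 above 0, beside −0.07 over all probes. Without the low-yield library its sign changed, to −0.08 with 5 above 0, beside −0.002 over all probes. This median includes CDH5, ROBO4 and PALMD, which lay near background in most libraries.

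The second comparison asked what differed between late and early samples of one donor line (late R against early bx); late against early cannot be told apart from R against bx. No gene of the 10 was called with limma, and 0% of the 767 probes were, with and without the low-yield library; 0 of the 10 had an unadjusted p under 0.05, beside 1.69% of all probes. TEK, ERG and PECAM1 had the smallest p-values of the 10. TEK stood at −0.87 ± 0.59, ERG at −0.68 ± 0.46 and PECAM1 at 0.82 ± 0.60 (limma adjusted p = 0.990 for each); without the low-yield library PECAM1 had 0.79 ± 0.43 (limma adjusted p = 0.911). All 10 had overlapping groups, against 10.2% of probes without overlap over all libraries and 11% without the low-yield one.

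KDR showed how far single libraries set these values. Its log2 fold change was 0.72 ± 1.24 over all libraries, 2.40 without replicate 3 of late R and −0.50 without replicate 2. CDH13, SOX7 and PLA1A stood at 0.10 ± 0.43, −0.04 ± 0.63 and −0.04 ± 0.57, and the median of the 10 genes was 0.03, beside −0.02 over all probes.

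**Figure D3:**
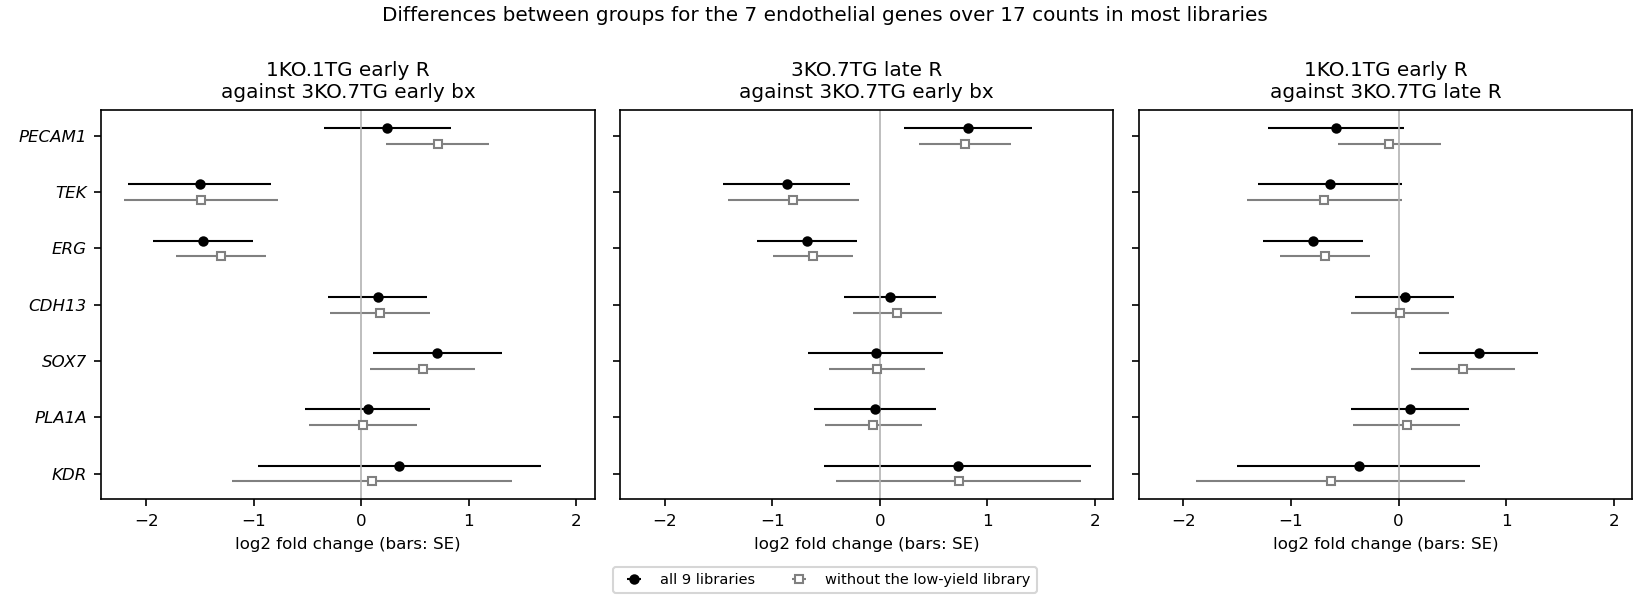
Log2 fold change of the 7 genes that exceeded 17 counts in most libraries, with moderated standard errors, for the 3 comparisons; filled circles use all 9 libraries and open squares leave out the low-yield one. ERG and TEK lie to the left of 0 in all 3 panels, and no value passed an adjusted p of 0.05.

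The third comparison set the 2 donor lines side by side in samples labelled R (early R against late R), in which donor line and the early or late label change together and cannot be told apart. It shares each of its groups with one of the comparisons above, so its values are not independent of them. None of the 10 genes was called with limma, against 0.391% of all probes, and 0.522% without the low-yield library; 0 of the 10 had an unadjusted p under 0.05, beside 6.65% of all probes. ERG stood at −0.80 ± 0.46 and SOX7 at 0.74 ± 0.56 (limma adjusted p = 0.804 and 0.850). Both had groups that did not overlap, 2 of 10 beside 11.1% of all probes; without the low-yield library TEK joined them, 3 of 10 beside 24.1%.

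TEK stood at −0.64 ± 0.67, PECAM1 at −0.58 ± 0.63 and KDR at −0.37 ± 1.13, with PECAM1 at −0.08 ± 0.48 without the low-yield library. CDH13 and PLA1A stood at 0.06 ± 0.46 and 0.10 ± 0.55. The median of the 10 was −0.48 with 4 above 0, beside −0.06 over all probes. Without the low-yield library it was −0.36 with 4 above 0, beside 0.05 over all probes. ROBO4 gave 1 and 8 counts in the 2 deeper libraries of early R and 30, 51 and 6 in late R, which overlapped (limma adjusted p = 0.852; with the low-yield library left out it was 0.530).

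Other genes of the endothelial programme were described from lists drawn up outside the 10. Of 19 other endothelial identity genes measured, none was called in limma in any of the 3 comparisons, with 1 at an unadjusted p under 0.05 in each, beside 13.2%, 1.69% and 6.65% of all probes. Their medians were −0.15, −0.23 and −0.17 in the order above. Without the low-yield library they were −0.36, −0.21 and −0.39, with 15, 11 and 15 of the 19 below 0. GNG11, a G protein gamma subunit used in rejection scores, was nearest between the early groups. It gave 1002, 1359 and 28 counts in early R and 3454, 1863 and 1616 in early bx, or −1.79 ± 0.60 on the log2 scale (limma adjusted p = 0.245). It passed with 1 quality weight per library (−1.68, limma adjusted p = 0.0463), a setting in which 33 of 767 probes were called. CAV1 stood at −1.66 ± 1.03 (limma adjusted p = 0.538), with 7 to 18 counts in early R, near the viral probes, and 17 to 73 in early bx. In the third comparison GNG11 stood at −1.50 ± 0.60 and VWF at −1.34 ± 0.65 (limma adjusted p = 0.727 and 0.745).

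VWF, the von Willebrand factor stored in endothelial cells and platelets, was the nearest of that list between late and early 3KO.7TG samples. It gave 103, 561 and 189 counts in late R and 85, 15 and 83 in early bx, a log2 difference of 1.58 ± 0.66 with groups that did not overlap (limma adjusted p = 0.990). ENG, a co-receptor of the TGF-beta family on endothelium, stood at 1.31 ± 1.01. Like CDH5 and KDR, it was highest in replicate 2 of late R, at 346 counts against 1 to 67 in all others.

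A list of 24 further antibody-rejection transcripts, 7 of which (CAV1, ECSCR, GNG11, ICAM2, RASIP1, TM4SF18 and VWF) are also on the list above, had medians of −0.17, −0.25 and −0.16. Without the low-yield library the medians of this list were −0.36, −0.24 and −0.11. In it THBD, the thrombomodulin that turns thrombin to an anticoagulant role, was lower in early R than in both other groups. Early R differs from both in donor line, whose knocked-out and added genes the labels do not name. THBD was the 1 gene of the list called, beside 0.391% of all probes in each of these comparisons. It gave 46, 296 and 19 counts in early R, 23988, 10494 and 11248 in early bx, and 11902, 17910 and 14107 in late R, which put it at −7.26 ± 0.78 and −6.75 ± 0.78 on the log2 scale (limma adjusted p = 2.41e-04 and 3.53e-04). The 6 measured genes of growth factor and angiopoietin signalling had no call in limma, with 2, 0 and 1 at an unadjusted p under 0.05 (13.2%, 1.69% and 6.65% of all probes). Among them NOTCH1, a receptor of vessel branching, stood at 1.13 and FOXO1, a transcription factor of endothelial quiescence, at −1.27 between the early groups (limma adjusted p = 0.338 and 0.350).

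Of the 14 measured genes of endothelial activation and adhesion none was called in limma, with 4, 1 and 2 at an unadjusted p under 0.05 (13.2%, 1.69% and 6.65% of all probes) and medians of 0.48, 0.66 and 0.36. ICAM1, an adhesion receptor for leucocytes, stood at 1.63 ± 0.54 between the early groups (limma adjusted p = 0.245). With 1 quality weight per library, where 33 of 767 probes were called, it was at 1.66 (limma adjusted p = 0.0399). PLAT, the tissue plasminogen activator, had 2.01 ± 0.67 between the early groups (limma adjusted p = 0.245). VCAM1, another adhesion receptor, stood at −1.95 ± 0.56 in early R against late R (limma adjusted p = 0.559).

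For GUSB, SDHA, UBB and STK11IP, 4 reference genes, the panel holds separate probes labelled macaque and pig, whose specificity was not checked. Averaged over the 4 genes, the log2 ratio of the macaque to the pig probe ran from −3.62 to −0.56 over the 8 libraries and was lowest, −3.62 and −3.11, in replicates 1 and 2 of early bx. Pearson's r with this ratio was tested for 759 probes by exact two-sided permutation of the 8 libraries, adjusted over all 759; 16.5% were called, and 4.74% by Spearman's rho.

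PECAM1 rose with the macaque to pig ratio (r = 0.82, exact permutation p = 0.0072, adjusted p = 0.0475). It was the 1 gene of the 10 to pass, beside 16.5% of all 759 probes. Counted from the lowest r to the highest, PECAM1 ranked 684 of 759. Its rank correlation of 0.81 missed the threshold, with an adjusted p of 0.109 (exact permutation p = 0.0218). TEK had r = −0.82 and ERG r = −0.80 and missed the threshold (exact permutation p = 0.0125 and 0.0170, adjusted p = 0.0616 and 0.0715). By rank rho was −0.76 and −0.83 (exact permutation p = 0.0368 and 0.0154, adjusted p = 0.135 and 0.0934). Without the 2 libraries farthest from the median ratio, r was 0.87 for PECAM1, −0.59 for TEK and −0.50 for ERG. With each group's mean removed it was 0.85, −0.73 and −0.79. The other 7 genes ranged from −0.75 (PALMD) to 0.38 (PLA1A), and none passed. The median r of the 10 was −0.29, beside 0.06 over all probes. Of the 19 other endothelial identity genes 14 had a negative r, with a median of −0.49. Beside 16.5% of all 759 probes, 2 of the 19 passed. They were ICAM2, an adhesion protein of endothelial junctions, and RASIP1, a regulator of vessel lumens (r = −0.88 and −0.85, exact permutation, adjusted p = 0.0472 and 0.0401). ICAM2 gave 9 to 24 counts in the 8 libraries, near the viral probes, and with library size removed its r was −0.54 and that of RASIP1 −0.57. The 7 probes for genes of other organs, at 1 to 20 counts, all had a negative r as well, with a median of −0.72, and 1 passed (SFTPA2, a surfactant protein of the lung, r = −0.87, exact permutation, adjusted p = 0.0437).

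PECAM1 also ran with the log2 of the effective size (r = 0.90), and with size removed its r with the ratio was 0.30; that of TEK was −0.67 and that of ERG −0.62. With 1 of the 8 libraries left out in turn, the PECAM1 call held without replicate 2 of early R and was lost without each of the other 7 (exact permutation, adjusted p = 0.0758 to 0.197), with r from 0.73 to 0.91 throughout. With libraries scaled to the median probe PECAM1 also missed the threshold (r = 0.67, exact permutation, adjusted p = 0.169), while TEK and ERG passed (r = −0.87 for each, adjusted p = 0.0344). The share of all probes called with that scaling was not counted, so these passes have no background beside them.

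**Figure D4:**
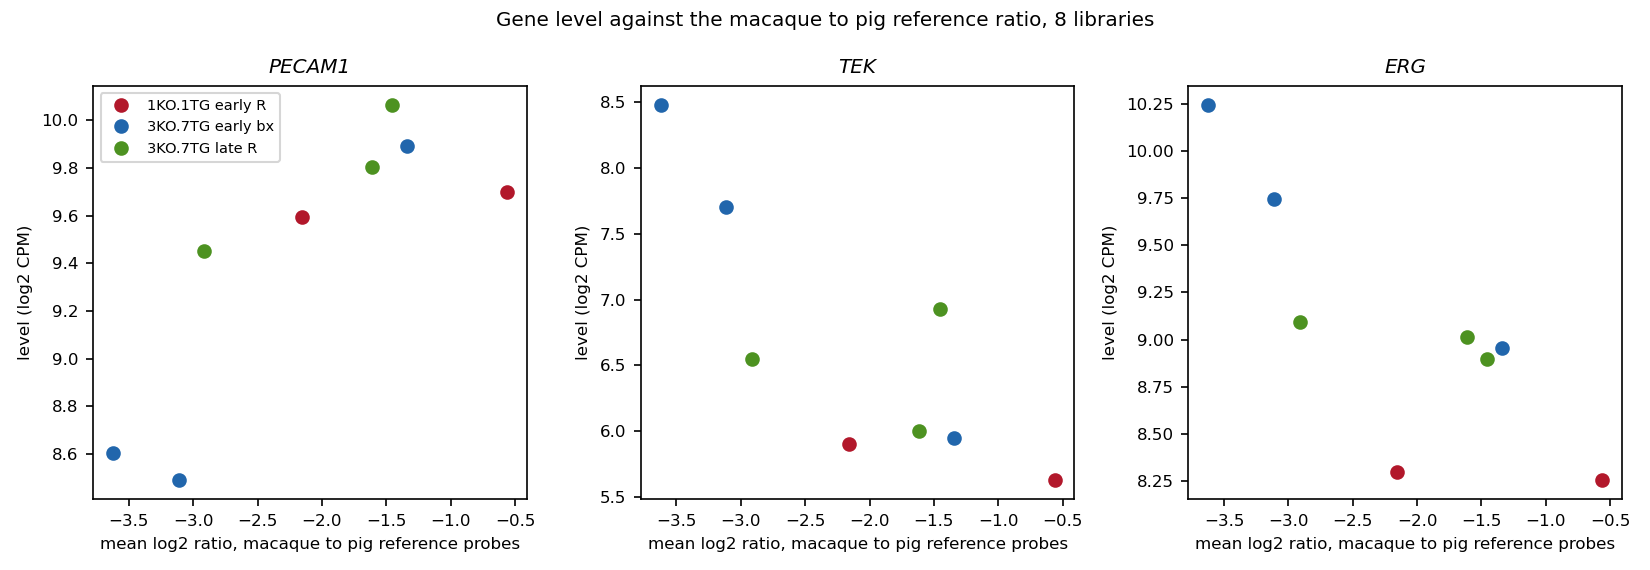
Level of PECAM1, TEK and ERG (log2 CPM) against the log2 ratio of macaque to pig reference probes averaged over 4 genes in 8 libraries, 1 point per library, coloured by group. PECAM1 is lowest and TEK and ERG highest in the 2 libraries of early bx with ratios of −3.62 and −3.11.

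Markers of other cells were set against the same ratio. Of 14 leucocyte genes measured, 11 had a positive r with the ratio and 3 passed, beside 16.5% of all 759 probes. The 3 were PTPRC (the leucocyte antigen CD45), CD68 (a macrophage lysosomal protein) and ITGB2 (an integrin chain). The summed level of all 14 was 15192 and 61250 CPM in replicates 1 and 2 of early R, 6156 to 9876 in early bx and 10578 to 19452 in late R, and none was at 0. S100A8 and S100A9, calcium-binding proteins of neutrophils and monocytes that did not pass with the ratio, made up 44376 of the 61250. The other 12 summed to 11019 and 16874 CPM in early R, 5859 to 9653 in early bx and 7968 to 10339 in late R. PTPRC gave 1504 and 1687 counts in the 2 libraries of early bx that were low in PECAM1 and 4868 in the third. These counts also carry library size. On the CPM scale PTPRC ran from 2206 to 4334 in early bx, and from 2589 to 4149 in late R, which overlapped. Of 11 kidney parenchyma genes measured, 9 had a negative r, with a median of −0.76 that lay close to the −0.72 of the other-organ probes. Beside 16.5% of all 759 probes, 5 of the 11 passed. Of these UMOD, AQP2 and GATA3 stood above background, while SLC12A3 gave 10 to 26 and LRP2 4 to 13 counts in the 8 libraries. The summed level of the 11 was highest in replicates 1 and 2 of early bx, at 56498 and 39665 CPM, against 9596 to 37219 in the other 6. Of 4 platelet genes measured, all 4 lay above 0 between the early groups, with a median of 2.41. PPBP and PF4, both platelet chemokines, stood at 3.09 and 2.54 (limma adjusted p = 0.170 and 0.206). Both were called without the low-yield library, beside 1.83% of all probes. The part of leucocytes, of platelets or of kidney content in the PECAM1, TEK and ERG values was not tested.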

How the data were processed

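The authors deposited log2 values for 767 probes in 9 libraries; steps after counting are not given in the sources used here, and the labels' protocols state RNA extraction with an absorbance check. Raising 2 to each value gave whole numbers within a relative tolerance of 1e-04, so the deposited log2 values were read as log2 of unscaled counts. The smallest count was 1 in every library. Whether 1 was a floor or was added to each count is not given, so the lowest counts may be overstated. The planned fit was voom with an offset of 0.5 on trimmed-mean scaled library sizes (trims of 0.3 and 0.05), lmFit and eBayes in limma 3.58.1 (R 4.3.3), over all 9 libraries in 3 group means. Two-sided p-values were adjusted over all probes (Benjamini-Hochberg) and called at 0.05; no probe was left out. The number of libraries, 3 per group, limits the precision. The fit and the correlation test were tested on simulated data.

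The 10 genes, the lists and the tests were chosen with earlier results of these data known. Named genes were all 10, up to 2 of each other list by moderated t and any called, and the 8 probes most and 4 least like the mean of the 10; not every gene so picked is printed. The PECAM1 to ERG ratio, the PTPRC counts and the split at 17 counts were chosen after values were seen. Alternatives changed the scaling, weights, background, pseudocount, filter, samples and a replicate block.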

Additional observations from a re-analysis of the deposited data

How the results depend on the processing

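Across 18 alternatives per comparison, 1 of the 10 genes, ERG between the early groups with 1 quality weight per library, was called once, and no other. Calls over all probes ranged from 2 to 33 (3 as reported) for early R against early bx, from 2 to 10 (3 as reported) for early R against late R, and were 0 for late R against early bx. The sign of a value near 0 depended on the scaling, which moved the median of all probes to between −0.77 and 0.81, −1.40 and 0.38, and −0.27 and 0.55 in that order; the cause of the other changes was not tested.

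For early R against early bx (log2), scaling to the median probe gave PECAM1 −0.0499, CDH13 −0.0727 and PLA1A −0.16, and macaque reference probes gave CDH13 −0.21 and PLA1A −0.295. Unscaled values gave PECAM1 −0.96, CDH13 −0.66, KDR −0.13 and PLA1A −0.53. Pig reference probes moved the median of the 10 to 0.88. PECAM1 was −0.0281 without voom weights and KDR −0.20 with quality weights. For late R against early bx, CDH13 was −0.0317 (median) and −0.0637 (macaque). SOX7 and PLA1A were 0.41 and 0.35 (pig) and 0.48 and 0.43 (unscaled). PLA1A was 0.0551 with quality weights and SOX7 0.0151 after the viral mean was subtracted. For early R against late R, CDH13 and PLA1A were −0.041 and −0.0102 (median), −0.14 and −0.0364 (macaque) and −1.30 and −0.96 (unscaled). Unscaled, SOX7 was −0.16 and the median of the 10 was −1.58. KDR was 0.13 (pig), 0.10 (no voom weights) and 0.0427 (viral mean subtracted), and PLA1A −0.032 with quality weights.

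With 1 library left out at a time, early R against early bx ranged from −0.0644 to 0.52 for CDH13 and from −0.27 to 0.64 for KDR. Late R against early bx ranged from −0.20 to 0.44 for CDH13, −0.50 to 2.40 for KDR, −0.33 to 0.20 for PLA1A and −0.27 to 0.35 for SOX7. Early R against late R ranged from −0.0723 to 0.34 for CDH13, −2.02 to 0.83 for KDR and −0.0922 to 0.43 for PLA1A.

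Same-numbered libraries of different groups did not all deviate together (r from −0.45 to 0.48 over 9 pairs, 3 over 0.1). Between early bx and late R, of the same donor line, r was 0.28, −0.34 and 0.48 for replicates 1, 2 and 3. Deviations within a group of 3 depend on each other, so these values cannot decide whether the numbers pair samples. With the replicate block no call among the 10 changed: ERG was −1.53 and TEK −1.92 between the early groups (limma adjusted p = 0.164 and 0.134), while KDR there was −0.54, PLA1A 0.10 for late R against early bx, and CDH13 −0.0584 for early R against late R.

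In the relation to the macaque to pig ratio, 1 gene was called as reported. There were 2 with median scaling (TEK and ERG, both r = −0.87), 0 with 1 taken from every count, 0 after the viral mean was subtracted, 0 with the low-yield library, and 0 to 1 with 1 library left out. The share of all probes called was not counted in these alternative settings. CDH5, ROBO4 and PALMD are limited by signal close to the viral probes, also in deep libraries.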
